A study of Homo sapiens with 8 samples.

Results

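KDM1A and 8 genes that encode its partners in the CoREST corepressor (RCOR1, RCOR2, RCOR3, HDAC1, HDAC2, PHF21A, HMG20B and KIAA0182) were followed by RNA sequencing in ES2 cells, an established human ovarian cancer line. These 9 genes were taken by symbol, as known parts of the complex, from the 23228 genes counted in each library, with earlier results of these data known. The study held 4 groups of 2 libraries each: control ES2 cells and KDM1A knockout ES2 cells, each given either vehicle or LY500307 (5 µM, 48 h), a compound that activates oestrogen receptor beta. All 4 groups come from the same line, and the compound used as vehicle is not named in the labels. The sources used here do not give the edited position in KDM1A, nor whether the knockout line is clonal or pooled. The labels do not tie the duplicates to separate cultures, and the p-values therefore rest on a spread between libraries that may be technical.

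KDM1A (also LSD1) demethylates lysine 4 of histone H3. On its own it acts poorly on nucleosomes, and a CoREST scaffold (RCOR1, RCOR2 or RCOR3) binds both KDM1A and a class I deacetylase, HDAC1 or HDAC2, so that acetyl and methyl marks can be removed by 1 assembly. PHF21A (BHC80) reads histone H3 that lacks lysine 4 methylation, HMG20B (BRAF35) is an HMG-box DNA-binding subunit, and KIAA0182, now named GSE1, is a coiled-coil protein that copurifies with the complex. DNA-binding repressors such as REST and the SNAI and ZEB families bring the complex to their target genes.

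Counts assigned to genes ranged from 24348937 to 30131097 per library. The spread between duplicates exceeded that of counting alone, with a chi-square of 3.05 to 4.30 per degree of freedom. All 9 genes passed the filter on low counts, RCOR2 only through the control libraries. Among markers of the labelled cell type, KRT7 and KRT18 carried most of the epithelial sum, which was 617 to 621 CPM (counts scaled to the TMM library size) in control cells with vehicle and 541 to 550 CPM in knockout cells with vehicle. EPCAM and CDH1 averaged 0.747 and 0.527 CPM over all libraries. In knockout cells with vehicle KRT7 was higher (log2 fold change 0.50, edgeR adjusted p = 4.47e-12) and KRT18 lower (-1.02, 3.38e-20), so the epithelial sum joins opposite changes. Of 8 epithelial genes tested 3 were higher and 3 lower, beside 30.7% and 33.3% of all genes tested. For 8 haematopoietic markers the summed levels in control and knockout cells with vehicle were 96.9 to 100.3 and 63.7 to 64.3 CPM. In the same order they were 105.2 to 107.9 and 33.1 to 33.3 CPM for 6 endothelial markers. For 8 mesothelial and fibroblast markers they were 65.8 to 66.3 and 14.6 to 15.5 CPM. Most of each sum came from 1 gene, CD68 (mean 84.7 CPM over all libraries), CDH5 (60.6) and PDGFRA (45.3), so the sums follow these genes and not a class. Of these lists 2, 4 and 4 genes were tested. With vehicle, 1 haematopoietic, 1 endothelial and 2 mesothelial or fibroblast genes were higher in knockout cells while 1, 2 and 2 were lower. Over all genes tested 30.7% were higher and 33.3% lower. Several of these markers were scarce (mean CPM of LYZ 1.09, TEK 0.288, ESAM 1.52, LUM 0.906, CALB2 0.237 and PDGFRB 1.02). Such genes may have been kept for testing only through the groups where they were high, so these counts are a description. The defining genes CD3E and HBB had no count in any group, and DCN had none in 3 groups. With LY500307 the epithelial sum was 728 to 739 CPM in control and 513 to 519 CPM in knockout cells, the haematopoietic sum 111.1 to 112.3 and 63.0 to 75.6 CPM, the endothelial sum 86.1 to 91.3 and 27.3 to 32.1 CPM, and the mesothelial and fibroblast sum 85.9 to 89.0 and 21.6 to 22.1 CPM. The part of these markers in the results below was not tested, and in bulk RNA fewer cells of a type cannot be told apart from less RNA per cell.

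Upstream sequences are shown for 4 members whose RNA differed between control and knockout cells, the 2 well-expressed scaffolds that were higher (RCOR1, RCOR3) and KDM1A and KIAA0182, which were lower. Each is the 250 bases just before the RefSeq start site in GRCh38.p14, printed 5′ to 3′ on the strand of the gene, with GC boxes (GGGCGG, or CCGCCC on the other strand) in capitals. The coordinates are chr1:23019218-23019467 for KDM1A, chr14:102592399-102592648 for RCOR1, chr1:211259116-211259365 for RCOR3 (the first of its 2 entries) and chr16:85613072-85613321 for KIAA0182, all on the plus strand.
KDM1A: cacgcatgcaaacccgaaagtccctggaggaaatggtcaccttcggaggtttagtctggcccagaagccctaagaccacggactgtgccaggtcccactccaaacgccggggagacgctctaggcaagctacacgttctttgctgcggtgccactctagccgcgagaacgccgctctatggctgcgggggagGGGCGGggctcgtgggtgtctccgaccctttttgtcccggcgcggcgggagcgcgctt
RCOR1: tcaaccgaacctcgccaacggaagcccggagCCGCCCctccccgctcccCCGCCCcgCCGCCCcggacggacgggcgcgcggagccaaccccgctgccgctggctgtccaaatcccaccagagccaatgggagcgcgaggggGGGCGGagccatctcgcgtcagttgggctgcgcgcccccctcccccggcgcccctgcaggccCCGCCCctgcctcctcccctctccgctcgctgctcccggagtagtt
RCOR3: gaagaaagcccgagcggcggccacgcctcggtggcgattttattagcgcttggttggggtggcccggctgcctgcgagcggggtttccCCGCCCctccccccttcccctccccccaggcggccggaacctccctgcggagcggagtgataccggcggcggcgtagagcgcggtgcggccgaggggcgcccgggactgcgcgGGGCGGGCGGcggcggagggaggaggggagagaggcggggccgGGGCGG
KIAA0182: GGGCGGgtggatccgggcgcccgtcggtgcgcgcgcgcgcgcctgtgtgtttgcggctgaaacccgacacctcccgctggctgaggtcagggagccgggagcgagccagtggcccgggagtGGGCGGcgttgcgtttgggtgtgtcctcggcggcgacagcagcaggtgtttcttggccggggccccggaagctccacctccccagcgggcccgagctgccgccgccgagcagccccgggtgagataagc

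KDM1A held 1 GC box and 23 CpG dinucleotides in this window, RCOR1 5 and 30, RCOR3 4 and 34, and KIAA0182 2 and 31. The RefSeq table matched 8 of the 9 members with 11 start sites. A GC box, with overlapping matches counted, was present in 9 of these 11 windows against 42.6% of all 35116 promoters of the same length, HDAC2 and 1 of the PHF21A start sites being the ones without. The median over all promoters was 11 CpG, and the members ranged from 0 to 42. CCAAT (or ATTGG) occurred in 4 of the 11 windows against 32% of all promoters, and the SNAI and ZEB E-box CAGGTG (or CACCTG) in 1, that of KIAA0182, against 17.5%. The left part of the REST element, TTCAGCACC (or GGTGCTGAA), matched in 0 of the 11, against 0.288% of all promoters. These matches describe letters and do not locate a binding site.

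The catalytic subunit was read first, since it checks the labels. KDM1A (hg19 chromosome 1, 23345936 to 23410182, plus strand) stood at 220.0 and 219.3 CPM in the control libraries with vehicle, 75.6 and 77.8 CPM in knockout cells with vehicle, 238.4 and 241.0 CPM in control cells with LY500307, and 72.0 and 71.6 CPM in knockout cells with LY500307. All 4 knockout libraries lay far below all 4 control libraries, and the transcript was still well represented in every knockout library. Its RNA in knockout cells was 34.9% of the control level with vehicle (log2 fold change -1.52 ± 0.050 SE, edgeR adjusted p = 4.21e-24) and 29.9% with LY500307 (-1.74 ± 0.050, edgeR adjusted p = 5.92e-26). Counts are summed over the whole gene, so they do not show whether an edited exon is missing from the RNA that remains.

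With vehicle, 64.0% of all 13498 genes tested passed an adjusted p of 0.05 for knockout against control (30.7% higher, 33.3% lower), and 66.2% did with LY500307 (32.6% higher, 33.6% lower). Of the 9 members, 7 passed in each treatment, 3 higher and 4 lower, and they were the same 7 with the same directions. RCOR2 was kept for testing only through the group where it was high. Without it 6 of 8 passed in each treatment. That share is near the background of these comparisons and is no result about the complex. The libraries of control and knockout cells did not overlap for 7 of the 9 members in each treatment, beside 81.3% of all genes tested with vehicle and 81.3% with LY500307. Median log2 fold changes over the members were 0.02 and -0.12, beside -0.01 and -0.01 over all genes tested. KDM1A was lower than all but 679 genes tested (5.03%) with vehicle and all but 615 (4.56%) with LY500307, RCOR2 than all but 332 and 256, and KIAA0182 than all but 1642 and 1863.

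**Figure D1:**
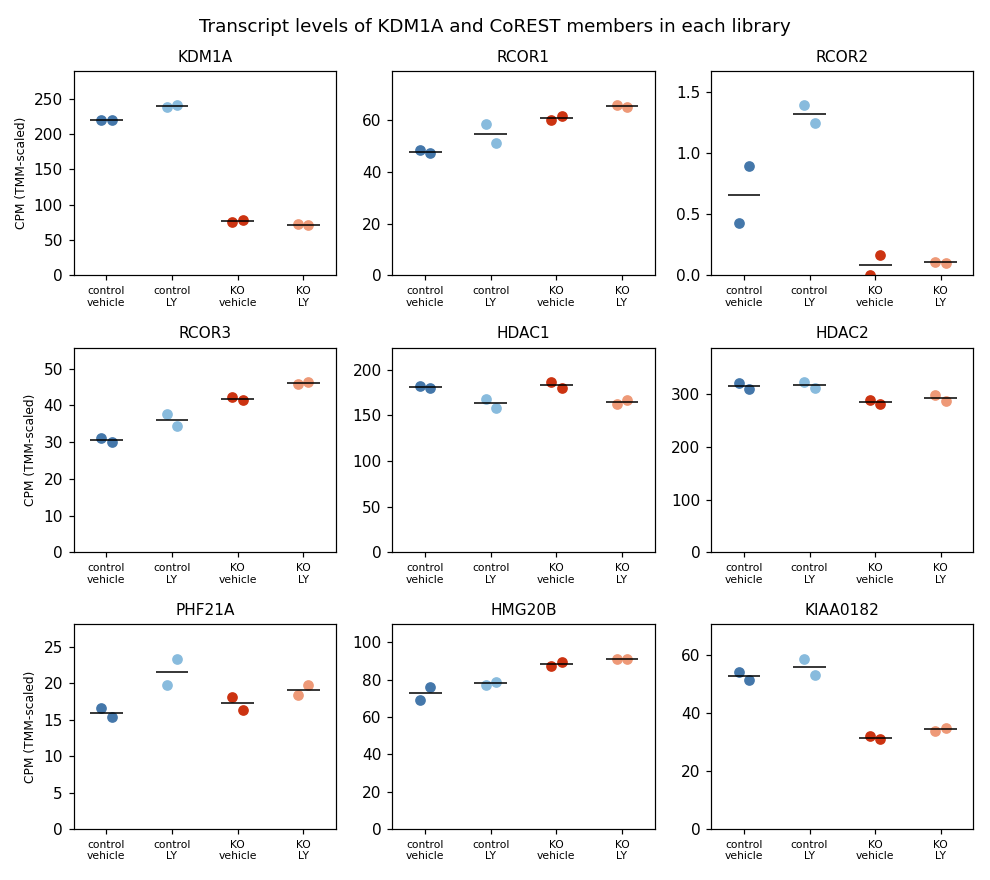
Level of each of the 9 genes in CPM (counts scaled to the TMM library size) in each library, grouped as control or knockout cells with vehicle or LY500307, 2 points per group. KDM1A lies between 71.6 and 77.8 CPM in knockout cells and between 219.3 and 241.0 CPM in control cells, while the HDAC1 points of control and knockout cells interleave.

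The scaffolds did not move as a family. RCOR1 (chromosome 14, 103058986 to 103196898, plus strand), the first CoREST scaffold described, stood at 48.5 and 47.4 CPM in control cells and 60.2 and 61.8 CPM in knockout cells with vehicle, and at 58.4 and 51.2 CPM in control cells and 66.0 and 65.1 CPM in knockout cells with LY500307. The groups did not overlap in either treatment. RCOR1 was higher in knockout cells by a log2 fold change of 0.35 ± 0.068 (SE, edgeR adjusted p = 3.23e-05) with vehicle and 0.26 ± 0.066 (edgeR adjusted p = 0.000858) with LY500307. Without the second control library with LY500307, the latter value was 0.17 and no longer passed (edgeR adjusted p = 0.0644).

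RCOR3 (chromosome 1, 211431719 to 211489727, plus strand), a scaffold for which forms that oppose demethylation have been described, followed the same direction. Its levels were 31.1 and 29.9 CPM in control cells and 42.2 and 41.4 CPM in knockout cells with vehicle, then 37.6 and 34.3 CPM in control cells and 45.7 and 46.4 CPM in knockout cells with LY500307. Every knockout library was above every control library. The log2 fold changes were 0.45 ± 0.074 (edgeR adjusted p = 2.17e-06) and 0.36 ± 0.071 (edgeR adjusted p = 3.94e-05).

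RCOR2 (chromosome 11, 63678702 to 63684636, minus strand), a scaffold known from pluripotent and neural cells, was scarce. It had 10 and 21 counts in the control libraries and 0 and 5 in the knockout libraries with vehicle, and 40 and 35 in control cells but 3 and 3 in knockout cells with LY500307. The groups did not overlap, yet the knockout libraries held so few reads that the size of the change is poorly fixed, and since the gene was kept for testing only through the control libraries its values are a description. Scaled for depth, the summed counts of control cells (31) exceeded those of knockout cells (5) by 7.22-fold with vehicle, with an exact 95% counting interval of 2.78 to 23.8. With LY500307 the ratio was 12.2 (75 against 6 counts, interval 5.35 to 34.3). The fitted log2 fold changes were -2.79 ± 0.71 with vehicle and -3.55 ± 0.58 with LY500307, given without p-values for that reason. With no filter on low counts they were -2.79 and -3.56. Leaving out the first knockout library with vehicle, the one without a count, moved the former to -1.95, and leaving out the second control library to -2.17. Without the second knockout library the remaining one has no count, and no fold is given.

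With KDM1A lower and RCOR1 and RCOR3 higher, the transcripts of enzyme and scaffold stood in another ratio in knockout cells. Levels can be compared between genes only per length, here CPM per kilobase of the canonical transcript. On that scale KDM1A amounted to 4.63 ± 0.052 (SD, n = 2) times the summed scaffolds in control cells with vehicle and 1.24 ± 0.019 times in knockout cells. With LY500307 the ratios were 4.33 ± 0.38 and 1.07 ± 0.0042. Enzyme RNA thus exceeded scaffold RNA several times over in control libraries and lay near parity with it in knockout libraries, a description with no test. RCOR1 per RCOR3 was 1.22, 1.14, 1.19 and 1.11 in control vehicle, knockout vehicle, control LY500307 and knockout LY500307 cells. RCOR1 made up 58.8% and 59.8% of the counts of the 3 scaffold genes in knockout cells with vehicle, 60.6% and 60.6% in control cells with vehicle, 59.0% and 58.3% in knockout cells with LY500307, and 60.0% and 59.0% in control cells with LY500307. Its share was 1.09 percentage points lower over the 4 knockout than over the 4 control libraries (59.0 ± 0.62 against 60.0 ± 0.74, SD), which an exact two-sided permutation test over all 8 libraries did not pass (p = 0.0571, adjusted p = 0.114 over the 2 shares tested, smallest p possible 0.0286). After adjustment, a share at that smallest p could pass only if the other share reached it too. The test also takes both treatments together, so it cannot decide the question. Within each treatment both knockout libraries lay below both control libraries, by a mean of 1.32 percentage points with vehicle and 0.86 with LY500307, and 2 against 2 libraries cannot pass such a test.

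**Figure D2:**
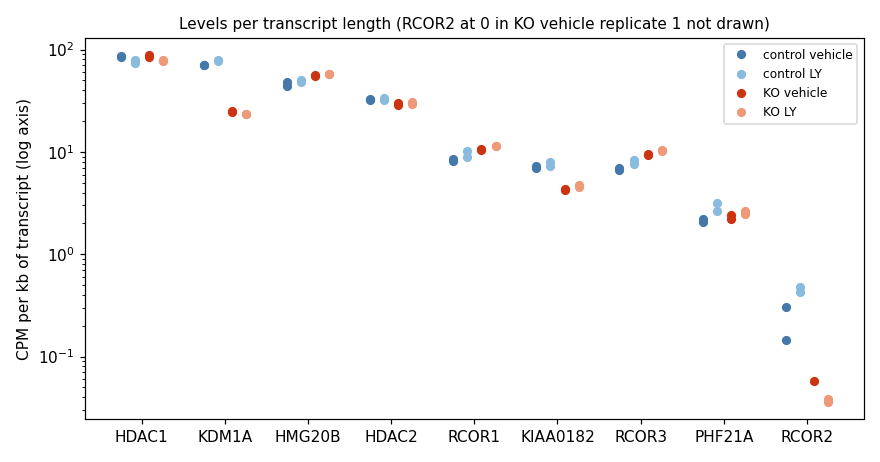
Level per length of each member in the 4 groups (CPM per kilobase of canonical transcript, log axis, points for each of the 2 libraries). HDAC1, KDM1A, HMG20B and HDAC2 are the most abundant in control cells, KDM1A falls from 71.2 to 24.9 with vehicle, and RCOR2 lies lowest in every group, its knockout library without a count not being drawn.

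Per length, the order in control cells with vehicle was HDAC1 (85.6 CPM per kilobase), KDM1A (71.2), HMG20B (45.9), HDAC2 (32.5), RCOR1 (8.33), KIAA0182 (7.13), RCOR3 (6.81), PHF21A (2.14) and RCOR2 (0.227). Neighbours in this order did not overlap between their libraries, except KIAA0182 (7.32 and 6.94) and RCOR3 (6.95 and 6.68). In knockout cells with vehicle KDM1A stood at 24.9 CPM per kilobase, behind HDAC1 (86.6), HMG20B (55.8) and HDAC2 (29.3), and RCOR1 (10.6) and RCOR3 (9.34) came ahead of KIAA0182 (4.27). With LY500307, the libraries of KDM1A (77.7) and HDAC1 (77.0) overlapped in control cells, as did those of RCOR3 (8.03) and KIAA0182 (7.59), and the order in knockout cells was that of knockout cells with vehicle. Lengths were those of 1 transcript per gene, 1585 bases for HMG20B up to 9737 for HDAC2, so use of a shorter form would raise a gene's value.

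The deacetylases changed little. HDAC1 (chromosome 1, 32757684 to 32799236, plus strand) was at 182.3 and 180.3 CPM in control and 186.8 and 179.9 CPM in knockout cells with vehicle, and at 168.3 and 158.0 CPM in control and 162.4 and 166.4 CPM in knockout cells with LY500307. Control and knockout libraries overlapped in both treatments. The log2 differences of 0.02 (95% interval -0.08 to 0.11, edgeR adjusted p = 0.794) and 0.01 (-0.09 to 0.11, edgeR adjusted p = 0.850) did not pass the test.

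HDAC2 (chromosome 6, 114254192 to 114332472, minus strand), the close paralog of HDAC1, was at 322.4 and 309.8 CPM in control and 289.9 and 281.1 CPM in knockout cells with vehicle. With LY500307 it was at 324.0 and 311.2 CPM in control and 298.1 and 286.8 CPM in knockout cells. All knockout libraries lay below the control libraries of the same treatment, by margins similar to the gap between duplicates. The log2 fold changes were -0.15 ± 0.045 (edgeR adjusted p = 0.00437) and -0.12 ± 0.044 (edgeR adjusted p = 0.0183). The call with vehicle was lost without the first control library (edgeR adjusted p = 0.0702) or the second knockout library (0.0551), and that with LY500307 without the first control library (0.163), without the second knockout library (0.114) and with unscaled library totals (0.0800).

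HDAC1 made up 36.1% and 36.8% of the counts of both deacetylases in control cells with vehicle, 39.2% and 39.0% in knockout cells with vehicle, 34.2% and 33.7% in control cells with LY500307, and 35.3% and 36.7% in knockout cells with LY500307. Shares of counts do not show which gene was more abundant, since the transcript of HDAC2 is longer. Per length HDAC1 exceeded HDAC2 in every group (85.6 against 32.5 CPM per kilobase in control cells with vehicle). The HDAC1 share of counts was higher in knockout cells within each treatment (by 2.65 and 2.07 percentage points), but vehicle and LY500307 libraries differed as much. Over 4 against 4 libraries the difference of 2.36 percentage points (37.5 ± 1.89 against 35.2 ± 1.50, SD) did not pass an exact two-sided permutation test, which takes both treatments together (p = 0.143, adjusted p = 0.143). Per length, KDM1A amounted to 0.603 of the summed deacetylases in control cells and 0.215 in knockout cells with vehicle, and to 0.709 and 0.216 with LY500307. The summed scaffolds amounted to 0.130 and 0.172 of the deacetylases with vehicle, and 0.164 and 0.202 with LY500307.

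**Figure D3:**
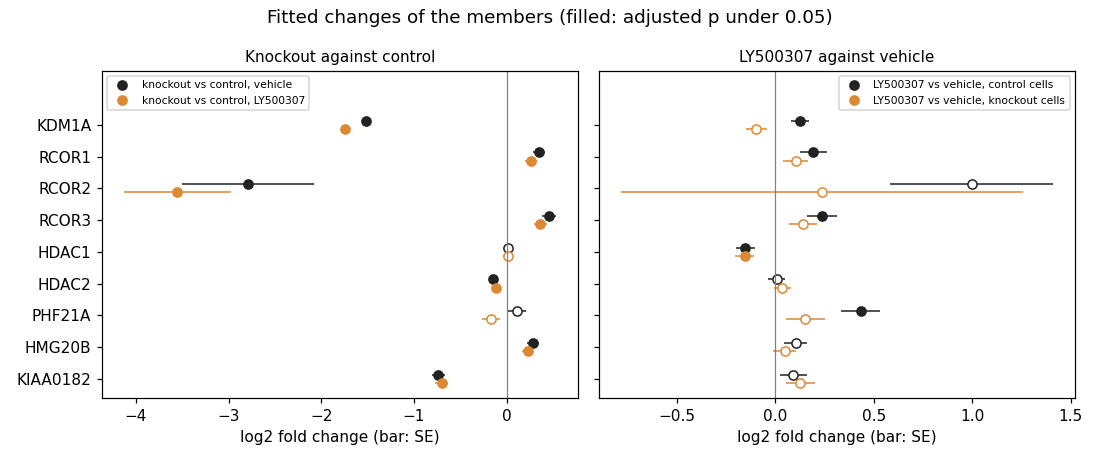
Log2 fold changes of the 9 members with their standard errors from the edgeR model, for knockout against control cells in each treatment and LY500307 against vehicle in each cell population. KDM1A, RCOR2 and KIAA0182 lie well below 0 in both knockout comparisons (-1.52, -2.79 and -0.74 with vehicle), RCOR1, RCOR3 and HMG20B lie above 0, and the RCOR2 bars are the widest.

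Of the accessory subunits, HMG20B rose, KIAA0182 fell and PHF21A did not pass the test. HMG20B (chromosome 19, 3572775 to 3579086, plus strand) was at 69.1 and 76.3 CPM in control and 87.5 and 89.3 CPM in knockout cells with vehicle, and at 77.2 and 79.0 CPM in control and 91.3 and 91.3 CPM in knockout cells with LY500307. Its libraries did not overlap, with log2 fold changes of 0.28 ± 0.059 (edgeR adjusted p = 9.74e-05) and 0.23 ± 0.058 (edgeR adjusted p = 0.00098). The gene shares 1514 bases with C19orf28 on the opposite strand, which rose from 58.1 to 90.0 CPM with vehicle (log2 fold change 0.63, edgeR adjusted p = 3.45e-10). No source used here says whether the counting used strand, so how reads in the stretch shared by HMG20B and C19orf28 were assigned is not known. Reads that the counter called ambiguous are not in these values.

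KIAA0182 (chromosome 16, 85203131 to 85709810, plus strand) was at 54.0 and 51.3 CPM in control and 32.1 and 31.0 CPM in knockout cells with vehicle. With LY500307 the values were 58.9 and 53.3 CPM in control and 33.9 and 35.0 CPM in knockout cells. All knockout libraries were below all control libraries, at 59.9% of the control level with vehicle (log2 fold change -0.74 ± 0.072, edgeR adjusted p = 6.18e-11) and 61.4% with LY500307 (-0.70 ± 0.070, edgeR adjusted p = 9.91e-11). It was the largest fall among the partners with more than a few counts, and it shares only 7 bases with the neighbouring GINS2, which fell by 0.76 on the log2 scale (edgeR adjusted p = 4.46e-12).

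PHF21A (chromosome 11, 45950870 to 46143005, minus strand) was at 16.6 and 15.4 CPM in control and 18.1 and 16.4 CPM in knockout cells with vehicle, and at 19.7 and 23.4 CPM in control and 18.4 and 19.8 CPM in knockout cells with LY500307. The groups overlapped in both treatments. Log2 differences were 0.11 (95% interval -0.10 to 0.32, edgeR adjusted p = 0.365) with vehicle and -0.17 (-0.37 to 0.02, edgeR adjusted p = 0.112) with LY500307. Without the first control library with LY500307 the latter became -0.29 and passed (edgeR adjusted p = 0.0268).

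LY500307 moved several members in control cells by small amounts. In control cells 26.3% of all genes tested differed between LY500307 and vehicle (12.3% higher, 14.0% lower), and 5 of the 9 members did, 4 higher (KDM1A, RCOR1, RCOR3, PHF21A) and 1 lower (HDAC1). PHF21A rose most of these, by a log2 fold change of 0.43 ± 0.10 (edgeR adjusted p = 0.00143), followed by RCOR3 with 0.24 ± 0.075 (0.0179), RCOR1 with 0.19 ± 0.068 (0.0330) and KDM1A with 0.13 ± 0.047 (0.0439). HDAC1 was lower by -0.15 ± 0.049 (edgeR adjusted p = 0.0195). The libraries of the 2 groups did not overlap for 63.1% of all genes tested and for 7 of the 9 members, which is near that background. They did not overlap for these 5, nor for RCOR2, whose counts were 75 against 31 (2.00-fold, 95% counting interval 1.30 to 3.15, edgeR adjusted p = 0.0733), nor for HMG20B (0.10, edgeR adjusted p = 0.209). HDAC2 (0.01, 95% interval -0.08 to 0.10) and KIAA0182 (0.09, -0.05 to 0.23) overlapped. All 5 calls were lost in some alternative. KDM1A no longer passed without any 1 of the 4 control libraries (edgeR adjusted p = 0.125 to 0.200), nor without either knockout library with vehicle. RCOR1 was lost without the first or second vehicle library or the first LY500307 library (0.0850, 0.160 and 0.453), RCOR3 without the second vehicle or the first LY500307 library (0.129 and 0.215), and PHF21A without the second LY500307 library (0.0775). HDAC1 was lost without either vehicle library (0.102 and 0.0682), without the second LY500307 library (0.216) and with unscaled library totals (0.226). With unscaled totals in place of TMM the share of higher among all genes called went from 46.9% to 73.7%, so the direction of small changes rests on the scaling.

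In knockout cells 20.4% of all genes tested differed between LY500307 and vehicle (9.16% higher, 11.3% lower), and 1 of the 9 members did. The libraries did not overlap for 58.4% of all genes and for 7 of the 9 members. HDAC1 was lower by -0.16 ± 0.049 (edgeR adjusted p = 0.0193), much as in control cells, with 162.4 and 166.4 against 186.8 and 179.9 CPM. This call was lost without the first vehicle library (edgeR adjusted p = 0.157), without the first LY500307 library (0.0847) and with unscaled totals (0.145), under which the share of higher among all genes called went from 44.8% to 70.6%. KDM1A stood at -0.10 (95% interval -0.20 to 0.01, edgeR adjusted p = 0.193), RCOR3 at 0.14 (-0.0015 to 0.28, 0.157), RCOR1 at 0.10 (-0.03 to 0.24, 0.282) and PHF21A at 0.15 (-0.05 to 0.35, 0.290). Median log2 fold changes over the 9 members were 0.13 in control and 0.10 in knockout cells, beside 0.01 and 0.01 over all genes tested. Each of these comparisons shares its vehicle libraries with a knockout comparison, so they are set side by side only.

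Whether the LY500307 response differed between the cell populations was tested with the interaction term. It passed for 1.62% of all genes (0.526% higher and 1.09% lower in knockout cells) and for 0 of the 9 members in edgeR and in DESeq2. At an unadjusted p under 0.05 there was 1 member, KDM1A, with an interaction of -0.22 ± 0.070 on the log2 scale (edgeR adjusted p = 0.100). PHF21A followed with -0.28 (95% interval -0.57 to 0.0048, edgeR adjusted p = 0.356). A response called in control and not in knockout cells is therefore not shown to differ for RCOR1, RCOR3 or PHF21A.

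Genes next to each other on a chromosome can shift together, so each member was set beside the 20 nearest tested genes on either side. Around KDM1A the 40 neighbours had a median log2 fold change of 0.19 (quartiles 0.02 and 0.58) in knockout cells with vehicle, and 39 of 40 lay above KDM1A. HSPG2, which encodes perlecan and is named here after its value was seen, was the exception (-1.99 with vehicle, -2.25 with LY500307). ASAP3, also named after its value was seen, came close to KDM1A with -1.43 and -1.30. Of the nearest protein-coding genes, EPHB2, an ephrin receptor, rose by 1.15 (edgeR adjusted p = 3.60e-20), ZBTB40 by 0.63 (1.03e-10) and CDC42, a small GTPase, by 0.19 (0.00109) to the left. To the right LUZP1 (0.02, edgeR adjusted p = 0.696) and HNRNPR (0.0026, 0.966) did not pass. HTR1D had a mean of only 0.107 CPM in control cells with vehicle. Its log2 fold changes of 1.87 with vehicle and -0.73 with LY500307 are a description. So scarce a gene may have been kept for testing only through the groups where it was high. KDM1A thus lay below the quartiles of its surroundings and below LUZP1. The left end of LUZP1 (23410523) is 64.6 kb from that of KDM1A and just past the right end of KDM1A (23410182).

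**Figure D4:**
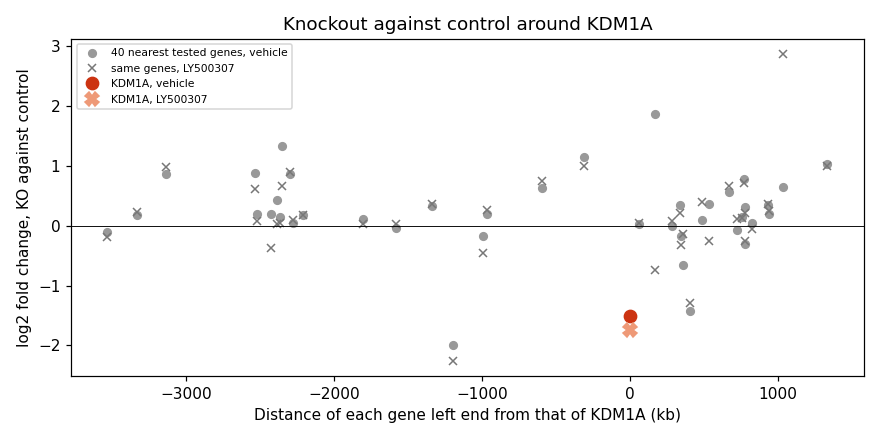
Log2 fold change of knockout against control cells for KDM1A and the 40 nearest tested genes, with vehicle and with LY500307. Genes are placed by the distance in kb of their left end from that of KDM1A. KDM1A lies at -1.52 and -1.74, below 39 of the 40 neighbours, whose median is 0.19 with vehicle.

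KIAA0182 also lay below its surroundings, with 34 of 40 neighbours above it with vehicle (median -0.18, quartiles -0.55 and 0.10). All 40 neighbours of RCOR2 were above it with vehicle (median -0.16, quartiles -0.28 and 0.16). The place of RCOR2 is a description only. The gene was kept for testing only through the control libraries, and the size of its change is poorly fixed. The other 6 members lay within the quartiles of their neighbours with vehicle. RCOR1 was at 0.35 beside a median of 0.20 (quartiles 0.03 and 0.36), RCOR3 at 0.45 beside 0.28 (-0.02 and 0.59), HMG20B at 0.28 beside 0.30 (0.09 and 0.59) and HDAC2 at -0.15 beside -0.11 (-0.72 and 0.06). The rises of RCOR1, RCOR3 and HMG20B were thus no larger than those of many genes around them. HDAC1 was at 0.02 beside 0.28 (-0.04 and 0.56) and PHF21A at 0.11 beside 0.05 (-0.21 and 0.24).

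The genes whose profile over the 8 libraries came closest to that of KDM1A were found by the Euclidean distance between centred log2 CPM values, over the 10402 genes that averaged 5 CPM or more and had a count in every library. They were MYO10 (distance 0.140), a myosin of filopodia, SEC14L1 (0.158), UACA (0.165), NGFR (0.214), a neurotrophin receptor, and CAV2 (0.217), a caveolin. MYO10 stood at 384.9 ± 4.03 and 128.3 ± 0.057 CPM in control and knockout cells with vehicle and 410 ± 2.92 and 131.2 ± 1.72 CPM with LY500307 (SD, n = 2). UACA, the highest with vehicle, stood at 442.8, 160.6, 495.9 and 156.1 CPM in the order control vehicle, knockout vehicle, control LY500307 and knockout LY500307. The likeness is a description over 8 libraries that share their groups.

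Further proteins of the KDM1A-CoREST network and other deacetylase complexes were read from lists, and their counts in knockout against control cells with vehicle are given beside 30.7% higher and 33.3% lower over all genes. Of 9 associated proteins tested, 2 were higher and 4 lower (median -0.13). GLYR1, the cofactor of the KDM1A paralog KDM1B, fell by 0.66 (edgeR adjusted p = 7.25e-13), from 140.4 ± 4.33 to 88.9 ± 1.24 CPM, beside a median of -0.71 over its 40 neighbours. KDM1B itself rose from 38.0 ± 1.09 to 47.1 ± 0.41 CPM (log2 fold change 0.31, edgeR adjusted p = 0.000246). The corepressor CTBP2 fell by 0.37 (edgeR adjusted p = 8.23e-06), and ZMYM2, a zinc finger partner of the complex, also by 0.37 (6.68e-06), with its 24 neighbours at a median of -0.34. GLYR1 and ZMYM2 lay within the quartiles of their neighbours, KDM1B above and CTBP2 below them.

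The DNA-binding factors that recruit the complex held several large changes. Of 23 factors 11 were tested, and 7 were higher and 3 lower (median 0.48). PRDM1 (BLIMP1) rose from 3.65 ± 0.028 to 31.4 ± 4.22 CPM with vehicle (log2 fold change 3.11 ± 0.14, edgeR adjusted p = 2.58e-20) and from 5.88 ± 0.26 to 33.0 ± 5.95 CPM with LY500307. SNAI2 (SLUG) rose from 50.7 ± 1.02 to 110.7 ± 2.39 CPM (1.13 ± 0.059, edgeR adjusted p = 4.72e-18), and RUNX1 rose by 0.74 (3.59e-14). ZEB2 fell from 88.2 ± 0.43 to 45.7 ± 0.060 CPM (-0.95 ± 0.062, edgeR adjusted p = 1.71e-15). Its paralog ZEB1, named after its value was seen, went the other way and rose by 0.56 (edgeR adjusted p = 4.49e-11). The 40 neighbours of PRDM1, SNAI2 and ZEB2 had medians of -0.10, -0.34 and 0.36, each opposite in sign to the gene, and those of RUNX1 a median of -0.06. REST, the factor through which CoREST was found, was the factor that did not pass (-0.10, edgeR adjusted p = 0.232). With LY500307 the counts were again 7 higher and 3 lower, beside 32.6% and 33.6% of all genes tested.

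Other complexes that hold HDAC1 and HDAC2 had genes called in both directions. In NuRD 1 of 12 genes was higher and 6 were lower (median -0.12), among them the histone-binding RBBP7, which fell from 445.1 ± 5.23 to 285.7 ± 0.32 CPM (log2 fold change -0.64, edgeR adjusted p = 4.29e-15), CDK2AP1 (-0.59, 1.35e-09) and the remodeller CHD3 (-0.31, 3.09e-07), while MTA1 rose by 0.26 (0.000225). In SIN3 5 of 13 were higher and 4 lower (median -0.08), with ING1 at -0.63, SAP18 at -0.33, ARID4B at 0.33 and SAP130 at 0.27 (edgeR adjusted p = 4.20e-06, 4.02e-05, 4.27e-05 and 0.000187). In the MiDAC and MIER group 2 of 7 were higher and 2 lower, TRERF1 at -0.77 and MIER1 at 0.65 (edgeR adjusted p = 3.63e-11 and 4.15e-11). NCoR-HDAC3, which uses HDAC3 instead, had 0 higher and 4 lower of 7 (median -0.16), led by NCOR1 at -0.26 and the scarce CORO2A at -1.05 (edgeR adjusted p = 7.60e-05 and 0.00022). Set beside the nearest tested genes, CHD3, MTA1, ING1, SAP18, SAP130 and NCOR1 lay within the quartiles of their neighbours, as for ING1 (quartiles -0.76 and -0.16), while RBBP7, CDK2AP1, ARID4B, TRERF1, MIER1 and CORO2A lay outside.

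Among the 8 other deacetylases tested, 5 were higher and 2 lower (median 0.35). HDAC9, a class IIa deacetylase, rose from 46.5 ± 0.58 to 166.4 ± 0.50 CPM with vehicle (log2 fold change 1.84 ± 0.059, edgeR adjusted p = 2.29e-24) and from 43.2 ± 2.64 to 137.8 ± 6.28 CPM with LY500307. Its 40 neighbours had a median of -0.20. HDAC6, a cytoplasmic deacetylase, rose by 0.82 (edgeR adjusted p = 1.71e-11) and HDAC5 by 0.70 (5.30e-07), and HDAC7 fell by 0.36 (4.74e-07). Their neighbours had medians of 0.36 (quartiles 0.26 and 0.64), -0.13 and -0.01. The other gene counted as lower, the scarce HDAC11 (mean 1.24 CPM over all libraries), is named after its value was seen. Its log2 fold change of -2.51 is a description, since so scarce a gene may have been kept for testing only through the control libraries. HDAC1 and HDAC2, the deacetylases of CoREST, stood at 0.02 and -0.15. The interaction passed for 0 genes of each of these 7 lists in edgeR, with HDAC5 at -0.50 (edgeR adjusted p = 0.0662).

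**Figure D5:**
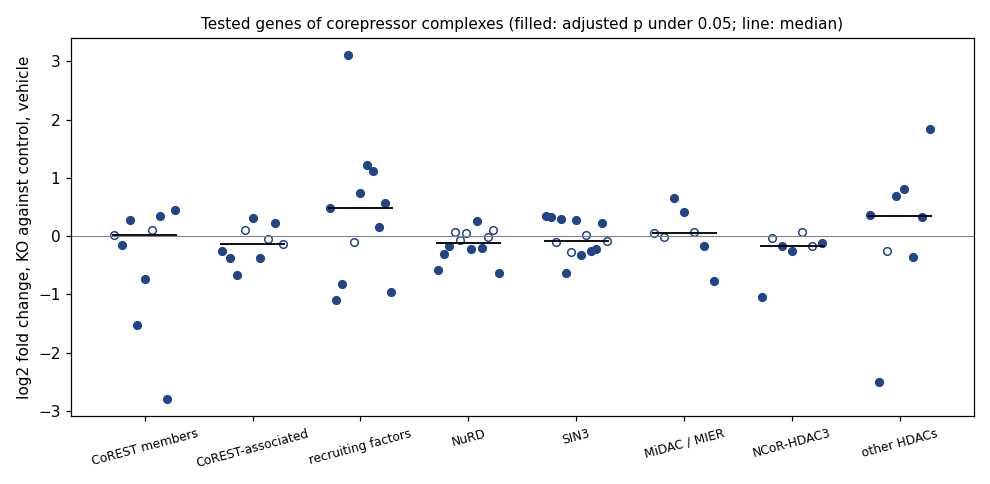
Log2 fold change of knockout against control cells with vehicle for each tested gene of the CoREST members and of 7 further lists, 1 point per gene, with the list's median. Among the recruiting factors ZEB2 lies at -0.95 and PRDM1 at 3.11, and HDAC9 stands at 1.84 among the other deacetylases.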

How the data were processed

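RNA of 8 libraries of ES2 cells was sequenced as single-end reads. The authors deposited raw counts, 1 whole number for each gene symbol and library. Per the submitters' processing notes, bcl2fastq, TopHat2 2.0.8b and HTSeq were used, with hg19. Per the labels' protocols, the library kit was stranded, while a guide for total RNA is cited as well. The series text speaks of combined reads, but the duplicates have separate, differing files and were kept as 8 samples.

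Summary entries of the counter were removed (10.7% to 12.8% of uniquely aligned reads lay outside genes, and 0.811% to 0.861% were ambiguous). Unused sample columns numbered 0. Of 23228 genes 5520 had no count, and filterByExpr (minimum count 10) kept 13498. One quasi-likelihood model with TMM scaling and a mean per group was fitted in edgeR 4.0.16 (limma 3.58.1, R 4.3.3) to all 8 libraries, on 4 residual and 30.1 prior degrees of freedom (biological coefficient of variation 3.95%). Tests were two-sided glmQLFTest contrasts adjusted by Benjamini-Hochberg over the 13498 genes, at a threshold of 0.05, and every adjusted p in the text comes from it unless another test is named. The procedure was tested on simulated counts. Mean CPM with SD are per group of 2. Standard errors (SE, log2 scale) are those of a contrast between groups in the model of all 8 libraries. Counting intervals (95%) hold no other error, as reads carried no molecular identifiers that the labels name.

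Positions and transcript lengths came from GENCODE 44 on GRCh37. Of the symbols, 18845 matched directly, 2132 through an older symbol and 2251 not at all. Gene bounds may differ from those used for counting. Promoters came from RefSeq (GRCh38.p14), whose coordinates belong to that build only. The members and lists were chosen with earlier results of these data known. Members were described in full. From each list up to 4 genes were named, those of smallest p among the genes that passed in knockout against control with vehicle. To these REST, ZEB1 and HDAC11 were added after their values were seen. The 3 nearest tested protein-coding genes on each side of KDM1A and the 5 genes of most similar profile were also named. Alternatives were unscaled library totals, size factors of DESeq2, DESeq2 1.42.0, no filter, only the groups compared, a replicate block and leaving out each library.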

Additional observations from a re-analysis of the deposited data

How the results depend on the processing

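With 2 libraries per group, each alternative that leaves out a library leaves 1 group with a lone library, assumed to vary like the others. The falls of KDM1A and KIAA0182 and the rises of RCOR3 and HMG20B in knockout cells passed in every alternative run under both treatments, and that of RCOR1 with vehicle. Of the 7 member calls in each knockout comparison, 1 with vehicle (HDAC2) and 2 with LY500307 (HDAC2, RCOR1) were lost in some alternative, and of the LY500307 calls 5 of 5 in control cells and 1 of 1 in knockout cells. The cause was not tested. In each knockout and LY500307 comparison, leaving out a library of the groups compared also lowered the number of calls over all genes tested. Member calls lost in that way are therefore no result about the complex. Leaving out 1 library, the members called numbered 6 to 7 in each knockout comparison, 1 to 5 for LY500307 in control cells, 0 to 1 in knockout cells, and 0 for the interaction. The difference in HDAC1 share ranged from 1.81 to 3.12 percentage points and that in RCOR1 share from -1.43 to -0.87, without passing.

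Replicate numbers were not taken as pairing, since deviations of same-numbered libraries correlated at only 0.058 to 0.137 over the 6 pairs of groups. With the replicate block 1 member passed for the interaction, KDM1A at -0.22 (edgeR adjusted p = 0.0214). Over all genes the interaction called 71 higher and 147 lower in the model used in the text. It called 297 and 346 with the block and 102 and 248 with no filter. With unscaled totals it called 55 and 165, with size factors of DESeq2 in edgeR 54 and 160, and in DESeq2 46 and 134.

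Signs turned, without the 1 library left out in each case, only for values that never passed. The log2 ranges were, for HDAC1, -0.011 to 0.042 (knockout, vehicle), -0.033 to 0.056 (knockout, LY500307) and -0.049 to 0.042 (interaction). For HDAC2 they were -0.023 to 0.036 (LY500307 in control cells), -0.0034 to 0.057 (LY500307 in knockout cells) and -0.015 to 0.057 (interaction). RCOR2 ranged from -0.61 to 4.57 (LY500307 in knockout cells) and from -1.60 to 3.57 (interaction). The other interaction ranges were -0.13 to 0.012 for HMG20B, -0.033 to 0.11 for KIAA0182 and -0.18 to 0.0063 for RCOR1. Calls gained were HMG20B (unscaled totals, 0.0257) and RCOR2 (only the groups compared, 0.0448) for LY500307 in control cells, RCOR3 (unscaled totals, 0.0354) for LY500307 in knockout cells, and PHF21A (without the first control library, -0.29, 0.0268) for knockout against control with LY500307, as edgeR adjusted p, beside KDM1A under the block. RCOR1 with LY500307 in control cells did not pass in DESeq2 (0.0603), nor KDM1A in edgeR with no filter (0.0556). RCOR2, with at most 5 counts in a knockout library, is the member that depth limits.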
